A study of Zea mays with 9 samples.

Results

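Endosperm homozygous for the maize allele thk1-iso15 was compared with wild-type endosperm in 6 poly(A) RNA libraries, 3 per genotype, out of 9 in the series. The libraries were chosen by their genotype labels alone. Both groups carry the B73 inbred background, came from self-pollinated plants grown in the field, and were dissected at 19 DAP (days after pollination). The mutant group is labelled thk1_iso15 (-/-) and the control group WT, with titles that call the controls B73. The sources used here do not give the lesion in the allele, the relation of the controls to the mutant families or the number of kernels per library. A difference of line therefore cannot be told apart from an effect of the allele. The other 3 libraries hold endosperm of a second homozygous allele, thk1-iso17, at the same age and in the same background.

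The cereal endosperm is a storage tissue with a starchy interior and an outer epidermis-like layer, the aleurone. The gene thk1 (thick aleurone1) is known for mutants in which extra layers of aleurone form, and it encodes a NOT1 protein, the scaffold of the CCR4-NOT complex. That complex removes the poly(A) tails of messenger RNAs, the step that starts the decay of many of them. Maize starchy endosperm at this stage devotes much of its messenger RNA to a small number of storage protein genes, so the most abundant genes are described separately here.

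Of 22281 genes tested, 22109 were nuclear gene models, 162 were annotated non-coding RNAs and 10 were mitochondrial. The names of nuclear gene models are not used here, since the reference table pairs none of the 44146 identifiers with a symbol. For that reason the tissue and cell type markers, the fixed lists of endosperm genes and the targeted gene itself could not be checked, and only 4 nuclear identifiers are given, 2 in each direction. In whole tissue, fewer cells of a type and less RNA per cell cannot be told apart.

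A mutant library stood apart from its group. On the first principal component of log2 CPM (gene counts relative to the TMM-scaled size of the library), which held 54.9% of the variance, WT lay between -67.9 and -53.6. Replicates 1 and 2 of thk1-iso15 lay at 71.6 and 76.3, and replicate 3 lay nearer to WT at 37.3. Among the thk1-iso15 libraries, replicate 3 had the largest share of entries that aligned to several places, 27.0% against 16.8% and 19.5%. The median absolute deviation from the group mean was 0.182 on the log2 scale in thk1-iso15 replicate 3, and between 0.113 and 0.147 in the other 5 libraries. WT replicate 2 did not stand apart over all genes, with a deviation of 0.114, but it had the highest share of counts from annotated non-coding RNAs, 0.0379% against 0.0195% and 0.0191% in WT replicates 1 and 3.

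In thk1-iso15 endosperm 3696 genes, 16.6% of those tested, differed from WT (edgeR quasi-likelihood test on these 6 libraries, Benjamini-Hochberg adjusted p under 0.05). Of these, 2008 were higher (9.01% of genes tested) and 1688 lower (7.58%). Among called genes, the higher ones moved farther. Their median log2 fold change was 1.27 with quartiles of 0.83 and 2.11, and 1303 of them (64.9%) rose by at least 2-fold. Lower genes had a median of -0.87 with quartiles of -1.27 and -0.65, and 661 (39.2%) fell by at least 2-fold. A change of at least 4-fold was seen for 534 of the higher and 168 of the lower genes, and one of at least 32-fold for 56 and 11. Higher genes were also less abundant, with a median of 6.60 CPM over the 6 libraries against 17.6 CPM for lower genes. Low counts need a larger fold change to pass, and the part of this in the difference was not tested. The median log2 fold change over all genes tested was 0.005.

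Almost all called genes separated the genotypes library by library. In 1976 of the 2008 higher genes every thk1-iso15 library lay above every WT library, and in 1685 of the 1688 lower genes every one lay below. The calls were made from these same libraries, so this separation is largely built in. Over all genes tested, 4400 (19.7%) lay above and 4258 (19.1%) below without overlap, 38.9% in either direction, so many separated genes did not pass the test. The number of calls changed with each library left out. Leaving out WT replicate 1, 2 or 3 gave 1269, 1786 and 1798 calls, and leaving out thk1-iso15 replicate 1 or 2 gave 2266 and 1625. Without thk1-iso15 replicate 3 there were 4944, of which 2749 were higher and 2195 lower.

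Each library was then read against the calls made from the other 5. Of the genes called without thk1-iso15 replicate 1, 98.6% changed in the same direction in that library relative to the WT mean, and for replicate 2 the share was 99.6%. For replicate 3 it was 90.5%, and the median displacement of the 4815 genes read in it, those also tested with all 6 libraries, was 0.59 on the log2 scale, against 0.93 in replicates 1 and 2, where those genes were called. For WT libraries held out in the same way, measured against the thk1-iso15 mean, the shares were 99.7%, 99.8% and 99.0%. The opposite group is the same in the call and in the reading, so part of this likeness is built in. The genes were also chosen for their displacement in the other libraries, so a smaller value in the left-out library is partly built in. Among the genes called with all 6 libraries, the median displacement of higher genes was 1.10, 1.06 and 0.83 in thk1-iso15 replicates 1, 2 and 3, and that of lower genes was -0.83, -0.83 and -0.78.

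The direction of change was split by abundance. Genes were ranked by their mean CPM over the 6 libraries. Of the 100 most abundant genes 6 rose and 19 fell, and at ranks 101 to 5000 the counts were 347 and 626. At ranks 5001 to 10000 rises and falls were nearly balanced, with 435 and 401. Below rank 10000, at under 10.7 CPM, 642 fell and 1220 rose. Medians of the log2 fold change moved in the same way, from -0.65 in the top 10 genes to -0.10 at ranks 1001 to 5000, 0.05 at ranks 10001 to 15000 and 0.18 below them. No test of this trend was made. An excess of lower calls at ranks 101 to 5000 and of higher calls below rank 10000 was found under all 16 alternative settings. In the top 100 the excess of lower calls was smaller with any library left out. It was lost without thk1-iso15 replicate 1, with 6 in each direction. Rises and falls there were 4 and 6 without thk1-iso15 replicate 2, and 12 and 13 without replicate 3. Without WT replicate 1, 2 or 3 they were 2 and 7, 6 and 8, and 4 and 9.

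**Figure D1:**
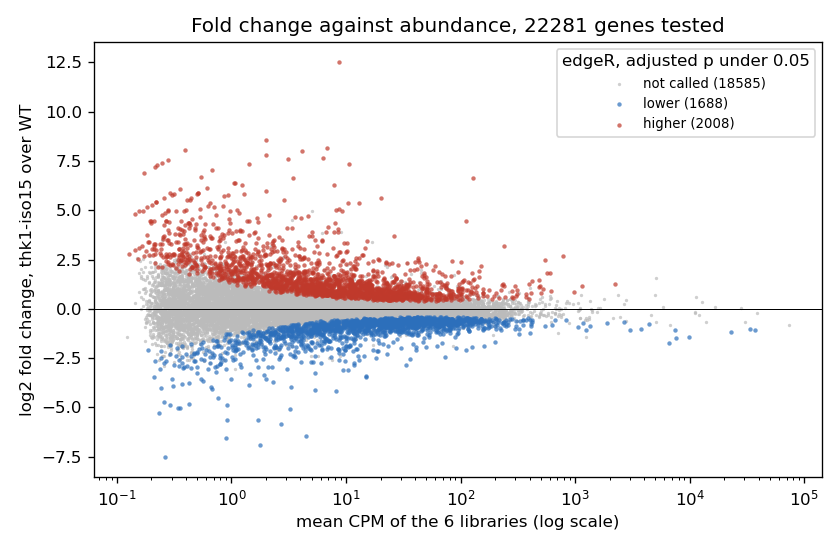
The log2 fold change of thk1-iso15 over WT is plotted for each of 22281 genes against its mean CPM over the 6 libraries on a log axis, with the 2008 higher genes in red and the 1688 lower genes in blue. Red points reach farther from 0 than blue ones at low abundance, while the most abundant called genes are blue.

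The called genes held different parts of the RNA pool. The 1688 lower genes took 28.4%, 23.0% and 24.6% of gene counts in WT replicates 1, 2 and 3, and 16.8%, 15.7% and 12.9% in the thk1-iso15 libraries. The 2008 higher genes took 2.73%, 2.75% and 2.82% in WT, and 8.06%, 7.19% and 5.67% in thk1-iso15. More genes rose than fell, but those that rose had low levels, with a median of 6.60 CPM over the 6 libraries against 17.6 CPM for lower genes and 8.43 CPM for all genes tested. These shares describe genes chosen by the same contrast and carry no test.

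The called changes among the most abundant messenger RNAs of WT endosperm were falls. These genes were ranked by their share in WT alone, a choice that favours falls. Ranked by mean CPM over all 6 libraries, the 10 most abundant genes held 3 called falls and 0 called rises. Of the 20 genes with the largest mean share in WT, 7 passed the edgeR test, all 7 lower in thk1-iso15, and 16 had a negative log2 fold change. The log2 fold changes include the TMM scaling and the shares do not, so the 2 can differ in sign. At rank 12 the mean share was 1.07% in WT and 1.11% in thk1-iso15, with a log2 fold change of -0.18. At rank 13 the shares were 1.06% and 1.11%, with -0.20. The gene of rank 1 took 9.15%, 9.50% and 6.72% of gene counts in WT and 5.96%, 7.09% and 4.48% in thk1-iso15. Its groups did not overlap, and the fitted change of -0.82 on the log2 scale (SE 0.34) did not pass (edgeR adjusted p = 0.124). Rank 3 took 4.90%, 3.68% and 3.70% in WT and 2.87%, 2.62% and 1.75% in thk1-iso15, and fell by 1.04 on the log2 scale (SE 0.29, edgeR adjusted p = 0.0390). The largest fall among the 20 was at rank 17, with 0.744%, 1.12% and 0.854% in WT and 0.510%, 0.249% and 0.247% in thk1-iso15. It changed by -1.73 on the log2 scale (SE 0.33, edgeR adjusted p = 0.0110).

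A further set of these genes was highest in a single mutant library. In 6 of the 20 genes thk1-iso15 replicate 3 was the highest of the 6 libraries, and 0 of these 6 passed the edgeR test. The gene of rank 4 took 3.58%, 3.72% and 4.01% in WT, 2.38% and 3.22% in thk1-iso15 replicates 1 and 2, and 5.69% in replicate 3. Replicates 1 and 2 thus lay below all WT libraries and replicate 3 above them, with a fitted log2 change of -0.23 (SE 0.39). The gene of rank 7 took 2.46%, 2.90% and 2.11% in WT, then 1.84%, 2.40% and 4.86% in thk1-iso15. In 8 other genes of the 20, replicate 3 was the lowest of the 6. That library also had the largest share of entries aligned to several places. The part of this in the result was not tested, and counts of near-identical gene copies are uncertain throughout.

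**Figure D2:**
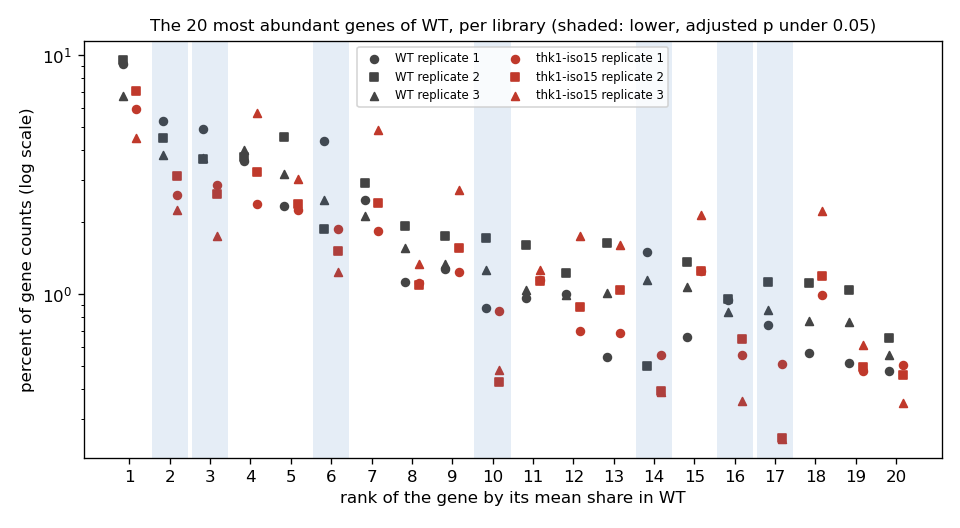
Each point is the share of gene counts, in percent on a log axis, that a library gave to 1 of the 20 most abundant genes of WT, ordered by rank. The 7 shaded genes were lower in thk1-iso15, and at ranks 4, 7 and 18 the red triangle of thk1-iso15 replicate 3 lies above all other points.

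Zm00001d005793 was the most abundant gene to fall, at rank 3 by mean CPM of all genes tested. By share in WT, as ranked above, it held rank 2, and the gene of rank 3 there is another one. Zm00001d005793 is thus among the 7 lower genes already counted. It stood at 56906, 54289 and 38479 CPM in the WT libraries and at 22145, 27978 and 22197 CPM in the thk1-iso15 libraries. Every mutant library was below every WT library, and the means were 49891 ± 9970 and 24107 ± 3353 CPM (SD, n = 3 each). On the log2 scale the change was -1.05 (SE 0.29, edgeR adjusted p = 0.0386), close to the threshold. With upper quartile factors the adjusted p was 0.0562, and with 1 library left out it lay between 0.0522 (WT replicate 3) and 0.114 (WT replicate 1). On a scale common to all 9 libraries, thk1-iso17 stood at 25521 ± 7676 CPM (SD, n = 3) beside a WT mean of 53048 CPM; the WT libraries are the same.

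Zm00001d024302 was the most abundant gene to rise, at rank 34 of all genes tested. Its levels were 1264, 1880 and 829 CPM in WT and 4187, 2838 and 2457 CPM in thk1-iso15. The groups did not overlap, with the lowest mutant library above the highest WT library, and the means were 1324 ± 528 and 3161 ± 909 CPM (SD, n = 3 each). On the log2 scale it rose by 1.25 (SE 0.32, edgeR adjusted p = 0.0299), which is 2.39-fold. The call was lost without WT replicate 1 or 3 or thk1-iso15 replicate 1 or 2, at adjusted p of 0.101, 0.0841, 0.0831 and 0.0615. In thk1-iso17 the mean was 3806 ± 178 CPM (SD, n = 3) beside 1406 CPM in WT on the scale of 9 libraries.

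Zm00001d027022 showed the largest fall among genes with a group mean of at least 5 CPM. The WT libraries had 205, 555 and 421 counts, or 9.22, 9.25 and 7.91 CPM. In thk1-iso15 there were 0, 1 and 11 counts. The gene was thus at a steady low level in WT and nearly without counts in the mutant, where the group held 12 counts in all. The fit gave a log2 change of -6.45 (SE 0.60, edgeR adjusted p = 0.000994), and it passed under all 16 alternatives. Without thk1-iso15 replicate 3, which held 11 of the 12 counts, 1 count was left in the mutant group and the fit gave -8.99. The gene was also low in thk1-iso17, at 0.206 ± 0.0949 CPM (SD, n = 3) beside 9.35 CPM in WT on the scale of 9 libraries.

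Zm00001d017032 showed the largest rise by the same rule. No count was found in any WT library, out of 149852906 gene counts. The thk1-iso15 libraries had 1205, 66 and 167 counts, or 47.2, 1.49 and 3.45 CPM. All 3 mutant libraries were above WT, but replicate 1 stood far above the other 2. With 3 counts assigned to the 3 WT libraries together as a floor, the mean of thk1-iso15 was at least 785-fold higher. Without replicate 1 that mean was at least 111-fold higher. These limits cover counting error in WT only, not the spread among the mutant libraries. The edgeR adjusted p was 0.0211 with all 6 libraries. By voom the adjusted p was 0.106, and by edgeR it was 0.0555, 0.0588 and 0.0706 without WT replicate 1, 2 or 3. In thk1-iso17 the gene was also found, at 5.40, 0.725 and 9.92 CPM on the scale of 9 libraries.

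**Figure D3:**
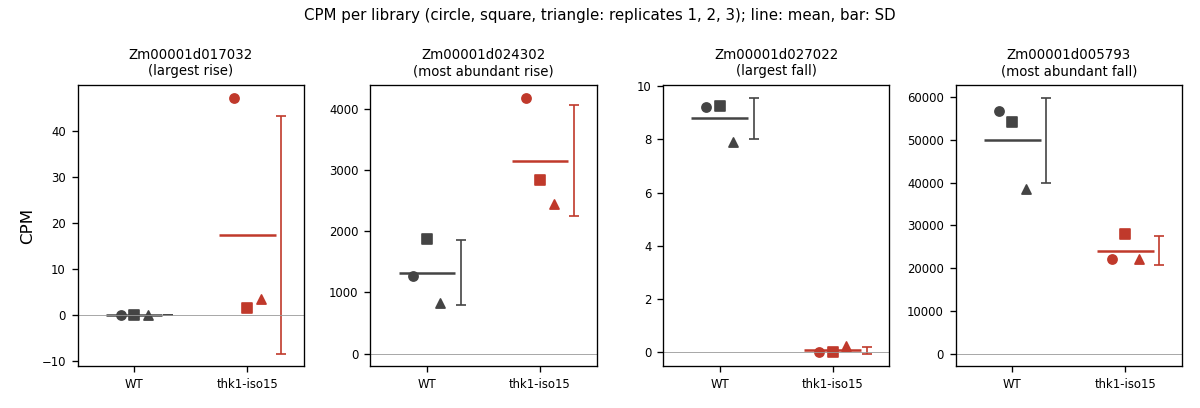
CPM per library is shown for the 4 nuclear identifiers named in the text, each on its own linear axis, with the group mean as a line and the SD as a bar. The groups do not overlap in any panel, and the mean of Zm00001d017032 in thk1-iso15 is set mainly by replicate 1 at 47.2 CPM.

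Genes close to silent in 1 genotype were more often silent in WT. Below 0.1 CPM in WT and at or above 1 CPM in thk1-iso15 lay 49 genes, and 12 genes lay the other way round. All 49 and all 12 passed the edgeR test, beside 16.6% of all genes tested. The limits set the direction and a large difference of means, so passing was largely built in.
The levels reached by the 49 genes were mostly low, with a median of 1.39 CPM and a highest value of 17.4 CPM, that of Zm00001d017032. In 16 of the 49 every thk1-iso15 library had at least 1 CPM. Replicate 1 was the highest mutant library for 22 of the 49, replicate 2 for 17 and replicate 3 for 10. No single library was thus the highest throughout, but the mean of a given gene can still rest on 1 library. The 12 genes close to silent in thk1-iso15 had a median of 1.78 CPM in WT and a highest value of 8.80 CPM, that of Zm00001d027022.

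Among genes with a mean of at least 100 CPM over the 6 libraries, 2 were singled out after their values were seen, the largest rise and the largest fall. The largest rise went from 1.49, 4.97 and 0.884 CPM in WT to 616, 87.9 and 53.6 CPM in thk1-iso15. Its groups did not overlap, and it rose by 6.63 on the log2 scale (SE 1.10, edgeR adjusted p = 0.00735). Replicate 1 was far above the other mutant libraries, and it alone brought the mean over 100 CPM. The largest fall went from 169, 205 and 165 CPM in WT to 35.1, 52.3 and 40.2 CPM in thk1-iso15. That gene was low in all 3 mutant libraries alike, with a change of -2.08 on the log2 scale (SE 0.18, edgeR adjusted p = 0.00065).

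More genes were detected in thk1-iso15 at equal depth. Gene counts came to between 24024943 and 72288973 in WT and between 21871601 and 47907660 in thk1-iso15. At a common depth of 21871601 counts the expected number of genes with at least 1 count was 25638, 25625 and 25777 in WT and 26977, 26823 and 26460 in thk1-iso15. Every mutant library exceeded every WT library, by 1074 genes in the mean (two-sided exact permutation p = 0.1, the smallest that 3 against 3 can give; 0.55 adjusted over 11 library measures). Depth was equalised on all gene counts, and a smaller share in the most abundant genes leaves more counts for the rest. The 10 most abundant genes held a mean of 34.1% in WT and 26.8% in thk1-iso15, with overlap between the groups. The part of this in the number detected was not tested. Without equalising depth, 2308 identifiers had a count in thk1-iso15 alone and 1634 in WT alone, although WT held more counts in all. A count in all 3 libraries of thk1-iso15 and none in WT was found for 203 identifiers, and the reverse for 97.

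The 10 most abundant genes of each library held 35.9%, 36.1% and 30.2% of gene counts in WT. In thk1-iso15 they held 23.4%, 26.3% and 30.9%. Replicate 3 of thk1-iso15 lay within the range of WT, so the groups overlapped (two-sided exact permutation p = 0.2, adjusted p = 0.55). The difference of means, -7.22 percentage points, was -9.23 without that library and -5.48 without thk1-iso15 replicate 1.

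**Figure D4:**
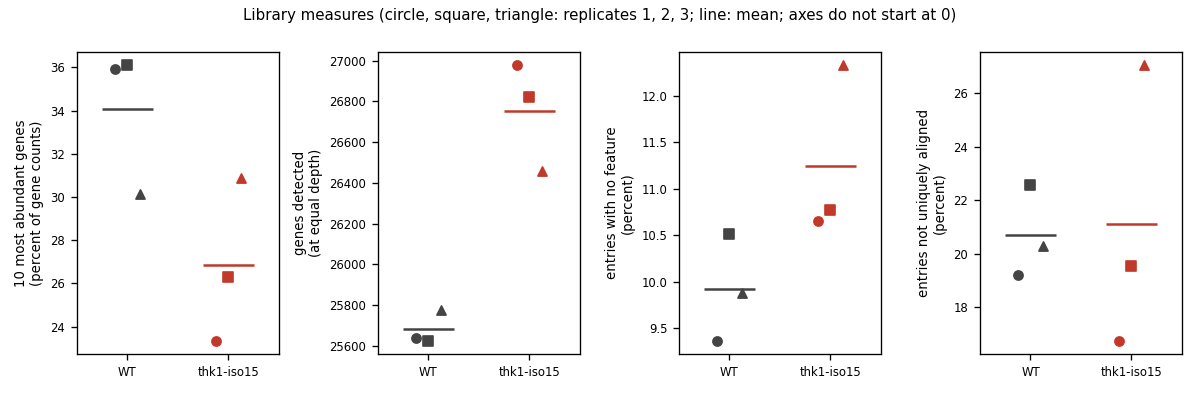
Each panel gives 1 value per library for the share of the 10 most abundant genes, the genes detected at equal depth, and the shares of entries with no feature and not uniquely aligned, with the group mean as a line and axes that do not start at 0. The genotypes separate for genes detected and for entries with no feature, and overlap in the other panels, where thk1-iso15 replicate 3 is the highest mutant library.

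With all 6 libraries, more annotated non-coding RNAs fell than rose in thk1-iso15, but the calls depended on single libraries. Of 162 tested, 15 fell (9.26%, against 7.58% of all genes) and 2 rose (1.23%, against 9.01%). Their median log2 fold change was -0.73, with 31 of 162 positive, against 0.005 over all genes. In 45 of them (27.8%, against 19.1% of all genes) all thk1-iso15 libraries lay below WT. WT replicate 2 was the highest of the 6 libraries for 87 of the 162, and without it the median was -0.34 and 0 fell. Without thk1-iso15 replicate 3, the highest mutant library for 110 of them, the median was -1.15 and 27 fell. Without WT replicate 1 or 3 or thk1-iso15 replicate 1 or 2 there were 1, 7, 3 and 1 falls. Each of these 6 fits called 1 rise, so falls did not outnumber rises without WT replicate 1 or 2 or thk1-iso15 replicate 2.

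The mitochondrial genes encode parts of the respiratory chain and the organelle's own ribosome. None of the 10 tested differed from WT by edgeR, with 0 at an unadjusted p under 0.05, and voom and DESeq2 also called 0. The large ribosomal RNA rrn26 stood at 103, 228 and 94.5 CPM in WT and at 98.3, 101 and 215 CPM in thk1-iso15. In each genotype 1 library, WT replicate 2 and thk1-iso15 replicate 3, lay well above the other 2.
For rrn26 the fit gave a log2 change of -0.04 (SE 0.39, edgeR adjusted p = 0.959). The small ribosomal RNA rrn18 stood at 28.3, 77.9 and 21.6 CPM in WT and at 19.0, 14.4 and 39.0 CPM in thk1-iso15, with a fitted log2 change of -0.82 (SE 0.50, edgeR adjusted p = 0.279). Without WT replicate 2 the change was -0.05. The small rrn5, also a ribosomal RNA, had 0, 66 and 30 counts in WT and 10, 23 and 34 in thk1-iso15 (log2 change -0.11, SE 0.85, edgeR adjusted p = 0.942).

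Mitochondrial messenger RNAs were near the limit of detection in these poly(A) libraries. nad4, a subunit of the NADH dehydrogenase of complex I, had 3, 86 and 50 counts in WT and 17, 24 and 69 in thk1-iso15, with a log2 fold change of 0.02 (SE 0.69). cox1, a core subunit of cytochrome c oxidase, had 8, 70 and 38 counts in WT and 5, 6 and 44 in thk1-iso15, with a log2 fold change of -0.84 (SE 0.74). The groups overlapped in both genes, and thk1-iso15 replicate 3 was the highest mutant library in each. cox3, another core subunit of that oxidase, had -0.26 (SE 1.02), and the open reading frames orf99-d and orf147-b had -1.02 (SE 0.81) and -0.14 (SE 0.79). Their edgeR adjusted p lay between 0.410 and 0.985 for nad4, cox1, cox3, orf99-d and orf147-b. At standard errors of 0.69 to 1.02 on the log2 scale, a 2-fold change of such a gene was not detectable. Plastid genes had 2, 18 and 3 counts in WT and 1, 0 and 7 in thk1-iso15, too few to be tested, and no microRNA gene had a count.

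**Figure D5:**
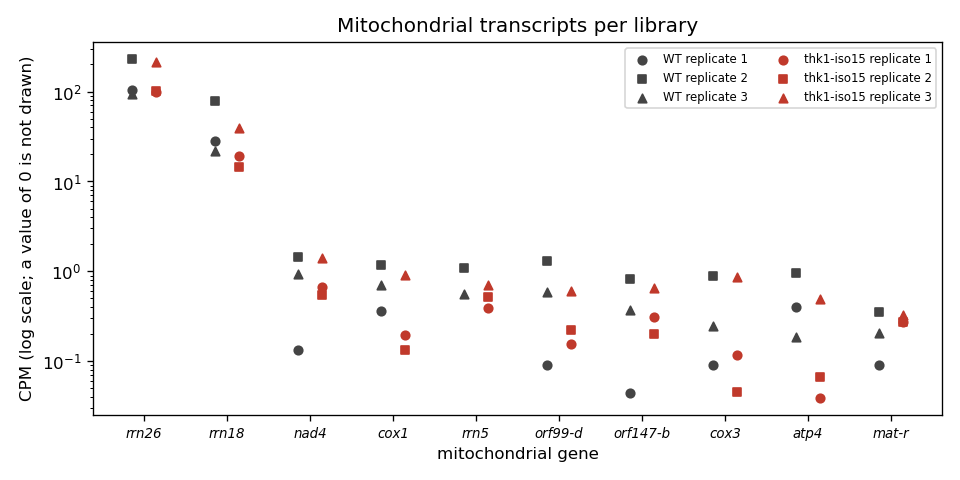
CPM of the 10 tested mitochondrial genes is shown per library on a log axis, WT in grey and thk1-iso15 in red. For rrn26 and rrn18 the grey square of WT replicate 2 and the red triangle of thk1-iso15 replicate 3 lie above the other points of their genotypes, and the genotypes overlap in all 10 genes.

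Genes next to a called gene were called about as often as other genes. Identifiers of nuclear gene models are numbered in an order that was not tied to chromosome positions here. Among 11090 pairs of consecutive numbers in which both genes were tested, both were called in 321. Of the called genes in such pairs, 17.1% were followed by another called gene, and of the genes not called 16.4% were, beside 16.6% of all genes tested. In the 321 pairs both genes rose in 122, both fell in 68 and the directions were opposite in 131. Windows of 20 tested identifiers held a median of 3 calls and at most 11.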

How the data were processed

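Each deposited file holds raw counts for 46430 gene identifiers, followed by 5 summary lines that the authors' counting left in the files. Per the submitters' processing notes, HTSeq 0.11.1, StringTie 1.3.6, SAMtools 1.9 and HISAT2 2.1.0 were used with the build B73 RefGen_v4. No source used here gives their settings, the annotation or the use of strand, so counts of overlapping, antisense and near-identical genes are uncertain. Per the labels' protocols TruSeq libraries were read as paired ends, with no molecular identifiers named.

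Summary lines were left out of library sizes and tests. Together the 5 held 33.5% to 47.1% of a library's entries. With edgeR 4.0.16 in R 4.3.3, low genes were removed by filterByExpr, and the rest were scaled by TMM factors and tested by glmQLFit and glmQLFTest on the 6 libraries alone, with p adjusted by Benjamini-Hochberg over 22281 genes. The common biological coefficient of variation was 0.249. SE is the absolute log2 fold change over the square root of F. The 3 samples per genotype are called biological replicates by the submitters. Of these steps, the edgeR fit was run on simulated counts with known changes. Log2 differences of single libraries used a pseudocount of 0.5 CPM. The number of genes detected at equal depth was computed from the hypergeometric distribution. Floors of 3 counts and 95% Wilson intervals, at most 0.0207 percentage points to either side for the shares of counts or entries tested per library, cover counting error only. Alternatives were RLE, upper quartile and TMM factors without the 100 most abundant genes, DESeq2 1.42.0, voom in limma 3.58.1, other filters, all 9 libraries, a replicate block and leaving out each library. DESeq2 on the genes of the edgeR fit was added after seeing the data.

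The only names used are those of RefSeq genes on another assembly, Zm-B73-REFERENCE-NAM-5.0. That table matched 0 of 44146 nuclear gene models, 0 of 1765 non-coding RNAs and all 208 mitochondrial identifiers. The named identifiers are, in each direction, the called gene with the largest fold change among those with a group mean of at least 5 CPM and the called gene with the highest mean CPM, both without overlap between the groups. Among mitochondrial genes the ribosomal RNAs and the 5 most abundant protein-coding genes were to be named. The comparison, lists and rules were chosen with earlier results of these data known.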

Additional observations from a re-analysis of the deposited data

Results flagged for a closer look

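Entries that the authors' counting assigned to no annotated feature lie outside the gene counts, and their share was above WT in every mutant library. It was 9.37%, 10.5% and 9.88% of entries in WT replicates 1, 2 and 3 and 10.7%, 10.8% and 12.3% in thk1-iso15. The means were 9.92% ± 0.572 and 11.25% ± 0.940 (SD, n = 3 each; two-sided exact permutation p = 0.1, which no split of 3 against 3 can go below, and 0.55 adjusted over 11 measures). The gap between the highest WT and the lowest mutant library was small beside the spread within thk1-iso15, where replicate 3 was highest.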

How the results depend on the processing

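With 1 library left out, calls ranged from 1269 to 4944, higher genes from 692 to 2749 and lower genes from 577 to 2195. Under the other 10 settings the count kept within 1.5 times of 3696, from 3436 with 1 CPM in 3 libraries to 4953 with DESeq2 on the genes of the edgeR fit, and DESeq2 on all genes gave 4932. The share of higher calls lay between 52.3% and 57.5% over all 16. Same-numbered libraries of the 2 genotypes deviated together with weak correlations of 0.07, -0.008 and 0.135. The value for replicate 3 was the highest of any WT library with any thk1-iso15 library. WT replicate 1 correlated about equally with thk1-iso15 replicate 1 and replicate 2 (0.074). The numbers were not taken to pair the libraries. With the replicate block 3578 genes were called, 3135 of them also without it, and 6 non-coding RNAs fell and 1 rose.

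Falls of non-coding RNAs numbered 27 with DESeq2, 25 with DESeq2 on the genes of the edgeR fit and 23 without a filter. Rises numbered 1 without a filter and 1 with 1 CPM in 3 libraries. With 1 library left out falls ranged from 0 to 27, rises were 1 each time, and the median ranged from -1.15 to -0.34. The log2 fold change of rrn26 ranged from -0.51 to 0.48, turning positive (0.48, 0.15 and 0.14) without WT replicate 2 or thk1-iso15 replicate 1 or 2. The cause was not tested in these cases. The share of the 10 most abundant genes and the number of genes detected kept their direction in every setting, also without the most abundant gene (-6.05 points and 1029 genes). Several mitochondrial messenger RNAs had fewer than 10 counts in a library, and the part of sequencing depth in this was not tested.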
